A study of Rattus norvegicus with 6 samples.

Results

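The immunoglobulin heavy chain locus holds the gene segments from which B cells build the heavy chain of antibodies. Its rows were taken as every row of the 6 expression tables that lies on chromosome 6 after the end of Tmem121 and before the start of Zfp386, its neighbours on either side. This gave 69 of the 14405 listed genes, between positions 138054662 and 143702033. The locus was chosen by its FPKM values in these 6 libraries, as one whose rows are on or off from library to library in control against periodontitis. Those values are therefore given as a description, without a test. By its label, the RNA came from the epithelium of the dorsal tongue of rats. The circumvallate papilla, a taste organ at the back of the tongue, is the site the series names. The control group has 3 libraries, of rats that had no periodontitis. The other group also has 3, of rats that had chronic periodontitis, a lasting inflammation of the tissue that holds the teeth. The sources used here give neither strain, nor age, nor the way the disease arose. Whether the 3 libraries of a group come from different animals is not said, so their spread may be partly technical.

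An antibody heavy chain is made by joining 1 of many variable (V) segments to short diversity and joining segments, and the joined exon is then spliced to a constant region gene that sets the antibody class. A B cell and its descendants, including the plasma cells that secrete antibody, mostly use a single joined V segment, so the mixture of V segments in a tissue reflects which B cell families it holds. At mucosal surfaces such as the tongue, plasma cells make antibody that is tied into polymers by the J chain and carried across epithelium by the receptor encoded by Pigr. In bulk tissue, fewer cells of a type and less RNA per cell cannot be told apart.

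The locus was checked against its neighbours in the RefSeq annotation of GRCr8, another build of the rat genome. Between Tmem121 and Zfp386 it lists 182 entries, of which 146 are V segments, 4 are constant regions and 19 are pseudogenes. The interval also holds 5 protein-coding entries, among them Adam6, which encodes a sperm protein and is no antibody gene. No symbol of the 69 rows was found in that annotation (0 of 69), so which of them are V segments is known only from place and length, and some may be other genes. Of the 69 rows, 2 carry heavy chain symbols, Igh-6 and Ighg. A further 53 have clone-based names, 9 have LOC names and 5 have an identifier only. In GRCr8, 100 of the 146 V segments span at most 600 bp, with a median of 554.5 bp over all of them. By the same limit 45 of the 69 rows are short, and these stand in for V segments below, whereas 24 are longer. No source used here names the rat genome build of the deposited coordinates.

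The tissue label was checked with genes of tongue epithelium, taste bud, von Ebner gland and muscle, all of which were above 0 in every library. The muscle gene Acta1 had 468 to 746 FPKM in controls and 149 to 383 FPKM in periodontitis, so the RNA was not of epithelium alone. Krt13, a keratin of the tongue surface, had 5557 to 7057 FPKM (fragments per kilobase, scaled to the mapped fragments of the library) in controls and 4068 to 10164 FPKM in periodontitis. The taste cell gene Gnat3 had 12.9 to 16.8 and 6.65 to 22.3 FPKM. The von Ebner gland gene Lipf had 48516 to 64422 FPKM in controls, 30886 in periodontitis 1 and 93161 in periodontitis 3, so periodontitis libraries lay on both sides of the control range. All 14405 listed genes summed to between 611713 and 660619 FPKM per library. Every listed gene reached at least 0.544 FPKM in some library, so locus rows that stayed lower in all 6 are not analysed here. On the flanks, Zfp386 had 11.5 to 17.3 FPKM in controls and 11.9 to 19.2 FPKM in periodontitis. Tmem121 had 0.676 to 2.34 and 0.527 to 1.197 FPKM.

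**Figure D1:**
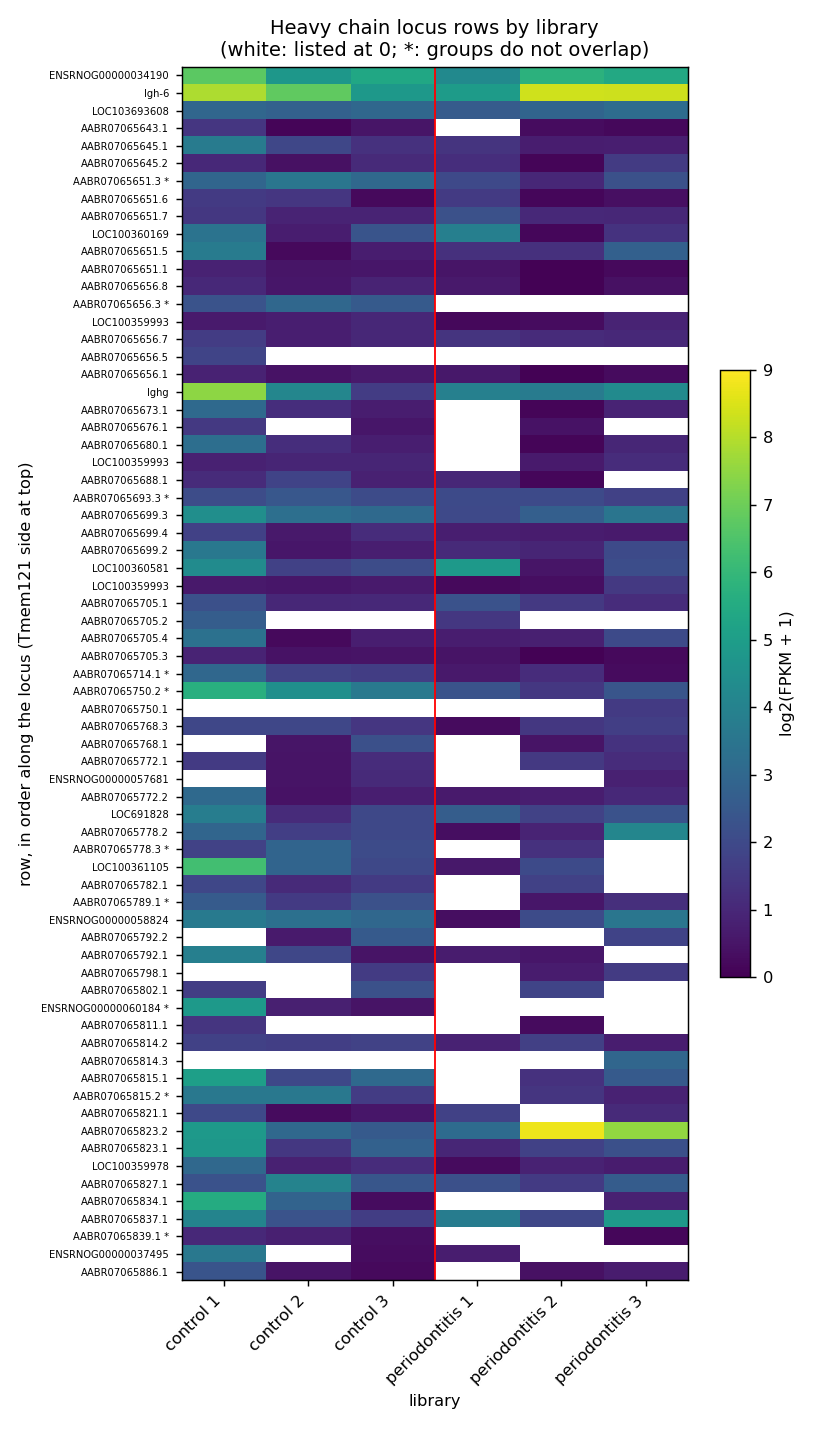
Expression of the 69 heavy chain locus rows (vertical, in order from the Tmem121 side) in the 6 libraries (horizontal), as log2(FPKM + 1) from dark to bright. White cells are values listed at 0, which number 25, 12 and 13 in periodontitis 1 to 3 and 6, 9 and 5 in controls 1 to 3. Asterisks mark the 10 rows whose groups do not overlap.

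The summed level of the 69 rows did not follow the groups. It was 1104, 323 and 212 FPKM in controls 1 to 3, and 182, 898 and 721 FPKM in periodontitis 1 to 3. Control 1 was thus highest and periodontitis 1 lowest, a range of 6.05-fold. The group means (± SD, n = 3) were 546 ± 486 FPKM for controls and 600.5 ± 373 FPKM for periodontitis. As a share of all FPKM, the locus made up 0.172%, 0.0495% and 0.0337% in controls and 0.0290%, 0.147% and 0.109% in periodontitis.

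The constant region genes Igh-6 and Ighg held a part of this level that varied by library. Together they had 412, 127 and 28.7 FPKM in controls 1 to 3 and 43.9, 341 and 334 FPKM in periodontitis 1 to 3. Igh-6, a heavy chain constant region gene by its symbol, lies on the minus strand (138092131 to 138093643) and was the most abundant row on average. It had 235, 111 and 26.7 FPKM in controls 1 to 3 and 29.7, 329 and 316 FPKM in periodontitis 1 to 3. The groups overlapped, with periodontitis 2 and 3 highest and control 3 lowest. Ighg, a gene of the gamma (IgG) class by its symbol (minus strand, 139140679 to 139142218), had 177, 16.3 and 2.01 FPKM in controls. In periodontitis it had 14.1, 12.3 and 18.6 FPKM, a much narrower range that lay inside that of the controls. The level of Igh-6 relative to Ighg was 1.33, 6.76 and 13.3 in controls and 2.10, 26.8 and 17.0 in periodontitis, so the balance of the 2 genes differed as much among controls as between groups. A row with an identifier only, ENSRNOG00000034190, spans 138054662 to 138662511 and encloses 7 other rows, Igh-6 among them. It had 106, 25.9 and 40.3 FPKM in controls and 18.5, 53.7 and 42.5 FPKM in periodontitis, with overlapping groups.

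The row that stood out most was AABR07065823.2, a short row of 294 bp on the minus strand (142903147 to 142903440) far from the constant genes. It had 27.2, 7.28 and 4.85 FPKM in controls 1 to 3. In periodontitis 1 it had 7.81 FPKM, within the control range, but in periodontitis 2 and 3 it had 438 and 187 FPKM. The mean log2 difference was 3.02, yet the groups overlapped because of periodontitis 1. Its neighbours along the chromosome did not share the high values. AABR07065821.1, the row before it, had 0 and 1.12 FPKM in periodontitis 2 and 3. AABR07065823.1, the row after it, had 2.35 and 3.56 FPKM there, against 26.2, 1.78 and 6.0 FPKM in controls. No other short row exceeded 3.13 FPKM in periodontitis 2 or 16.4 FPKM in periodontitis 3.

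As a share of the summed FPKM of the 45 short rows, AABR07065823.2 made up 5.67%, 5.91% and 4.45% in controls and 8.95%, 91.5% and 65.9% in periodontitis. The effective number of short rows, measured by the inverse Simpson index, equals 45 when all contribute alike and 1 when a single row holds everything. It was 14.9, 13.1 and 22.0 in controls and 6.57, 1.19 and 2.26 in periodontitis, so all 3 periodontitis libraries were more concentrated on a few rows than all 3 controls. With AABR07065823.2 left out, the index was 13.9, 12.1 and 20.99 in controls and 5.75, 21.8 and 14.8 in periodontitis. The separation therefore rested on this row in periodontitis 2 and 3, but not in periodontitis 1.

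In periodontitis 1 the leading short row was LOC100360581, at 28.2 FPKM or 32.3% of the short rows. It was followed by LOC100360169 at 13.9 FPKM. LOC100360581 had 19.1, 2.37 and 3.24 FPKM in controls and 0.441 and 3.32 FPKM in periodontitis 2 and 3, so it was high in 1 library of each group. In control 1 the leading short row was LOC100361105 at 76.6 FPKM, or 16.0% of the short rows, and in controls 2 and 3 it was AABR07065750.2. Periodontitis 2 and 3 thus shared their leading row, and so did controls 2 and 3.

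**Figure D2:**
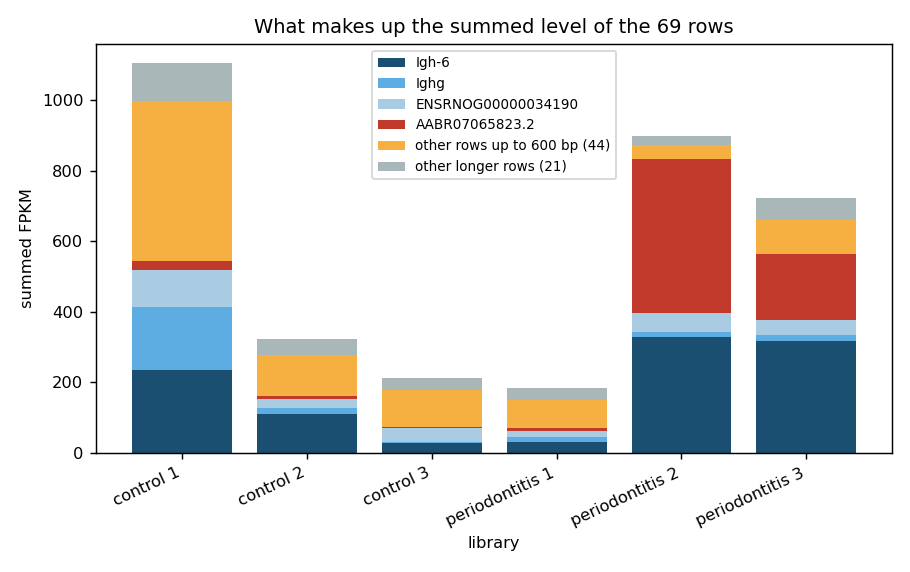
Summed FPKM of the 69 rows (vertical axis) in each library (horizontal axis), divided into Igh-6, Ighg, the long row ENSRNOG00000034190, the short row AABR07065823.2, the other 44 short rows and the other 21 longer rows. AABR07065823.2 fills 438 FPKM of periodontitis 2 and 187 FPKM of periodontitis 3, against at most 27.2 FPKM elsewhere.

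The short rows other than AABR07065823.2 showed another order of the libraries. They summed to 452, 116 and 104 FPKM in controls 1 to 3 and to 79.5, 40.8 and 97.0 FPKM in periodontitis 1 to 3. All 3 periodontitis libraries were below all 3 controls, but periodontitis 3 and control 3 were close. The row left out was picked after its high values in periodontitis were seen. With the leading short row of each library left out instead, the sums were 403, 102 and 97.7 FPKM in controls 1 to 3. In periodontitis 1 to 3 they were 59.1, 40.8 and 97.0 FPKM, so control 3 and periodontitis 3 were almost equal. Of the 69 rows, 40 had their highest value in control 1, 8 in control 2 and 6 in control 3, against 4, 2 and 9 in periodontitis 1 to 3. On the log2(FPKM + 1) scale, 56 of all rows had a lower mean in periodontitis (81.2%) and 13 a higher one, and the median difference was -0.45. Over all 14405 listed genes 58% had a lower log2 mean and the median was -0.04. By means of FPKM the numbers were 55 lower and 14 higher, against 52.4% lower over all listed genes. Without control 1 the count on the log2 scale was 43 of 69, against 55.0% of all listed genes.

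Rows listed at 0 were more frequent in periodontitis. They numbered 6, 9 and 5 of 69 in controls 1 to 3 and 25, 12 and 13 in periodontitis 1 to 3, so the groups did not overlap. The means were 6.67 ± 2.08 and 16.7 ± 7.23 rows (SD, n = 3), and the difference between the means was 10 rows, or 5.83 rows without periodontitis 1. Among all other listed genes, 0.460%, 0.802% and 0.802% were at 0 in controls and 1.35%, 0.412% and 1.12% in periodontitis. There the groups overlapped, and periodontitis 2 had the fewest. Periodontitis 1 had the most zeros both in the locus and elsewhere, and the part of its general zeros in the locus count was not tested. Depth is unknown, so a value of 0 says only that the row is listed at 0.

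Zeros were not arranged alike in the 2 groups. At least 1 zero was found in 31 of the 69 rows (44.9%), against 3.12% of all listed genes. Of these 31 rows, 19 were at 0 in periodontitis libraries only, 12 in libraries of both groups and 0 in control libraries only. The same split was not counted over all listed genes with a zero. The locus was also chosen for its on and off values, so the split is a description only. In 9 rows periodontitis 1 was the only library at 0. A further 3 rows were above 0 in a single library, namely AABR07065656.5 in control 1 (2.57 FPKM), and AABR07065750.1 (1.88 FPKM) and AABR07065814.3 (6.93 FPKM) in periodontitis 3. Above 0 in all 6 libraries were 38 rows, including both genes with heavy chain symbols. A filter of at least 1 FPKM in at least 3 libraries was passed by 39 rows and not by 30.

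Of the 69 rows, 3 were at 0 in all periodontitis libraries and 2 in all controls. Over all 14405 listed genes these numbers were 18 and 14. AABR07065656.3, a short row of 394 bp (minus strand, 138900522 to 138900915), had 3.97, 7.10 and 4.79 FPKM in controls and was listed at 0 in all 3 periodontitis libraries. ENSRNOG00000060184, of 502 bp (141957036 to 141957537), had 27.4, 0.732 and 0.393 FPKM in controls and was likewise at 0 in periodontitis. These 2 rows were also the only 2 of all 14405 listed genes with this arrangement (0.0139%). The first had control values within a narrow range, whereas the second was high in control 1 alone. No row was at 0 in all controls and above 0 in all periodontitis libraries, against 2 of all 14405 listed genes.

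Including AABR07065656.3 and ENSRNOG00000060184, 10 of the 69 rows (14.5%) had all periodontitis libraries below all controls, against 3.83% of all listed genes. None (0) had all of them above, against 2.03% of all listed genes. The largest levels among the 10 belonged to AABR07065750.2 (465 bp, minus strand, 140101861 to 140102325), with 49.6, 21.3 and 11.4 FPKM in controls and 3.96, 1.77 and 4.18 FPKM in periodontitis. Its group means were 27.4 ± 19.8 and 3.30 ± 1.33 FPKM (SD, n = 3), and its mean log2 difference was -2.54. AABR07065651.3 had 6.66, 10.6 and 7.20 FPKM in controls and 2.96, 1.01 and 3.72 FPKM in periodontitis. These 2 rows were above 0 everywhere, so their separation did not rest on zeros.

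The other members of the 10 were lower or less clear cut. AABR07065778.3 had 2.46, 6.51 and 3.19 FPKM in controls and was above 0 in periodontitis 2 only (1.45 FPKM). AABR07065789.1 had 5.05, 1.90 and 3.68 FPKM in controls and 0, 0.470 and 1.29 FPKM in periodontitis. Both are short rows far from the constant genes. AABR07065839.1, also short, had at most 1.07 FPKM in controls and at most 0.113 FPKM in periodontitis. AABR07065714.1 and AABR07065815.2 span 128001 and 41104 bp, too long for a single V segment, and had mean log2 differences of -1.45 and -2.20. AABR07065693.3, of 879 bp, had 3.30, 4.42 and 3.11 FPKM in controls and 3.10, 3.06 and 2.34 FPKM in periodontitis. Its nearest values in the 2 groups were almost equal, and it differed little between any libraries. Of the 10 rows, 8 passed the filter on low values. The count was 9 with all libraries rescaled to the same sum, and 10 without control 1. It was 21 without control 2, 18 without control 3, and 16, 14 and 21 without periodontitis 1, 2 and 3. Over all listed genes the share was 6.26%, 7.38% and 7.67% without controls 1, 2 and 3. It was 6.1%, 15.2% and 9.16% of them without periodontitis 1, 2 and 3. Rows with all periodontitis libraries above all controls numbered 6 without control 1, 2 without periodontitis 1 and 1 without periodontitis 2, against 3.84%, 6.36% and 3.33% of all listed genes. Without periodontitis 3 they numbered 0, against 18.5%.

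**Figure D3:**
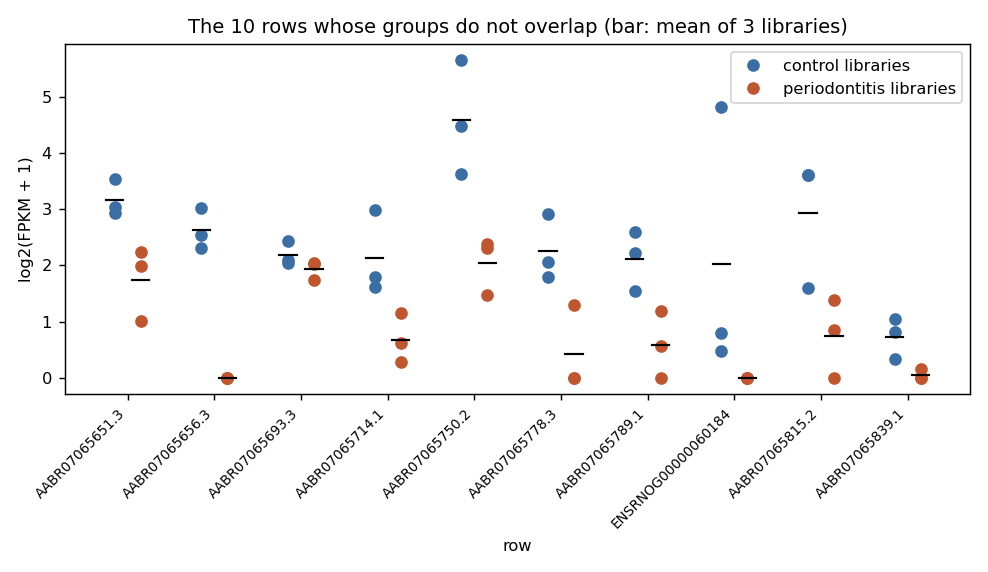
The 10 rows (horizontal axis) in which every periodontitis library lies below every control, with log2(FPKM + 1) on the vertical axis, 1 point per library and a bar at the mean of 3 libraries. AABR07065656.3 and ENSRNOG00000060184 sit at 0 in all 3 periodontitis libraries, and AABR07065693.3 has its groups nearly touching.

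Several other rows were high mainly in control 1. LOC100361105 (546 bp) had 76.6, 6.49 and 2.85 FPKM in controls and 0.502, 3.03 and 0 FPKM in periodontitis. AABR07065834.1 (434 bp) had 45.4, 6.28 and 0.223 FPKM in controls and 0, 0 and 0.781 FPKM in periodontitis. AABR07065815.1 (435 bp) had 33.0, 2.87 and 7.49 FPKM in controls and 0, 1.43 and 4.88 FPKM in periodontitis. In each of the 3 rows at least 1 periodontitis library lay above at least 1 control, so the groups overlapped in spite of mean log2 differences of -2.84, -2.62 and -2.10. AABR07065699.3 (802 bp) was spread more evenly, with 20.98, 8.72 and 7.51 FPKM in controls and 3.0, 5.63 and 10.3 FPKM in periodontitis. AABR07065837.1 (931 bp) was the clearest row with another order. It had 15.7, 3.95 and 2.08 FPKM in controls and 12.7, 2.76 and 27.7 FPKM in periodontitis, high in periodontitis 3, control 1 and periodontitis 1. LOC103693608, a row of 48477 bp, had 5.95 to 7.11 FPKM in controls and 4.93 to 7.97 FPKM in periodontitis, far steadier than the short rows. Of the other LOC rows, LOC691828 had 13.2, 1.15 and 2.88 FPKM in controls and 5.34, 2.42 and 3.86 FPKM in periodontitis. LOC100359978 had 7.20, 0.770 and 1.23 FPKM in controls and 0.203, 0.821 and 0.625 FPKM in periodontitis, and the 3 rows named LOC100359993 stayed at or under 1.82 FPKM in every library. The groups overlapped in all of these.

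Some rows of equal span had nearly the same values in every library. There were 46 pairs of equal span, with correlations from -0.54 upward, and those named were chosen after their values were seen. AABR07065673.1 and AABR07065680.1, both of 432 bp, had a Pearson correlation of log2 values of 0.9997 over the 6 libraries. The 3 rows of 850 bp on the minus strand (AABR07065651.1, AABR07065656.1 and AABR07065705.3) had correlations of 0.97 to 0.99 and differed by at most 0.131 on the log2(FPKM + 1) scale. LOC100360169 and LOC100360581, both of 462 bp but on opposite strands, had 0.96. Such points share library and depth, and no sequence was at hand to show that the rows are copies. If they are, reads can be divided between them, and single rows are uncertain. Some of their values were equal to every digit shown. AABR07065673.1 and AABR07065680.1 both had 1.23749 FPKM in control 2 and 0.09166 FPKM in periodontitis 2. The 3 minus-strand rows of 850 bp all had 0.0274342 FPKM in periodontitis 2. Whether such rows share reads was not tested, and the counts of rows given here take each as separate. AABR07065651.3 and AABR07065656.3 also have equal spans, of 394 bp, with a correlation of 0.89. Together they had 10.6, 17.7 and 12.0 FPKM in controls and 2.96, 1.01 and 3.72 FPKM in periodontitis. Their sum was thus lower in all 3 periodontitis libraries, though not at 0.

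Along the locus, rows fell into 3 stretches by strand. The 19 rows nearest Tmem121 and the 40 rows beyond are on the minus strand, and 10 rows between them, from 139158334 to 139560489, are on the plus strand. Among the first 19 rows, 0, 1 and 1 were at 0 in controls and 3, 2 and 2 in periodontitis. Among the plus-strand rows the numbers were 0, 1 and 0 against 4, 0 and 2, and 10 of the 10 had a lower mean log2(FPKM + 1) in periodontitis. By the mean of FPKM it was 9 of 10, LOC100360581 being the exception. Among the 40 rows beyond, 6, 7 and 4 were at 0 in controls and 18, 10 and 9 in periodontitis. The median log2 differences were -0.38, -0.49 and -0.63 from the first stretch to the last. Rows with separate groups numbered 2 of 19, 1 of 10 and 7 of 40.

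**Figure D4:**
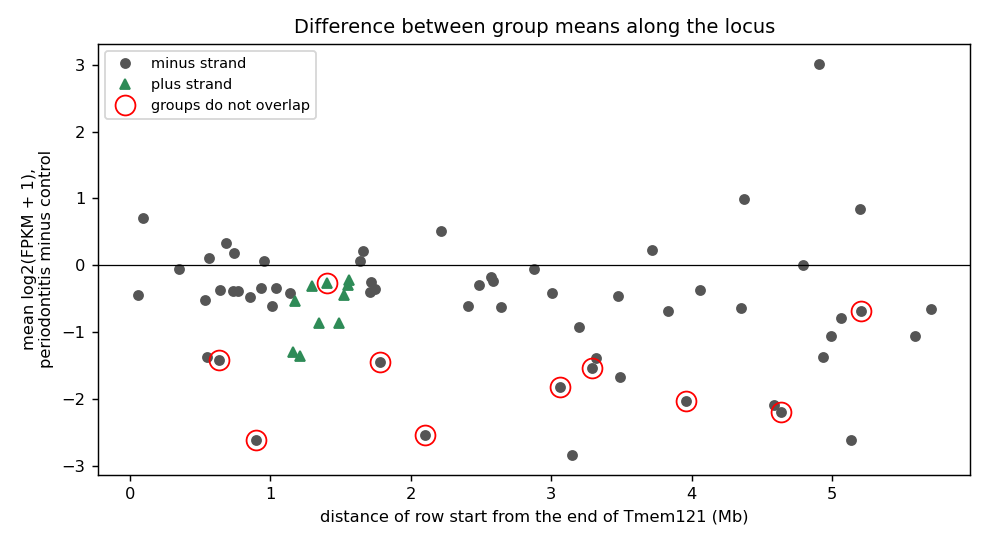
Mean log2(FPKM + 1) difference between periodontitis and control (vertical axis) for each of the 69 rows, against the distance of its start from the end of Tmem121 in Mb (horizontal axis). Circles are minus-strand and triangles plus-strand rows, and red rings mark the 10 rows whose groups do not overlap. AABR07065823.2 is the single point near 3.02.

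The partners of the heavy chain were read beside it. Jchain, which encodes the J chain of polymeric antibody, had 414, 116 and 148 FPKM in controls 1 to 3 and 63.4, 235 and 258 FPKM in periodontitis 1 to 3. Control 1 was highest and periodontitis 1 lowest, as for the summed heavy chain rows. Relative to the long row ENSRNOG00000034190, Jchain stood at 3.91, 4.49 and 3.67 in controls and 3.42, 4.37 and 6.07 in periodontitis, a much narrower range than either had alone. Mzb1, a chaperone of antibody-making cells, had 14.9, 3.15 and 3.98 FPKM in controls and 1.202, 5.84 and 6.66 FPKM in periodontitis. It ranked the 6 libraries exactly as Jchain did. The limma log2 fold changes were -0.30 ± 0.65 for Jchain and -0.50 ± 0.63 for Mzb1 (SE), and both adjusted p-values were 1.0 after rounding.

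For the lambda light chain, the interval between Klhl6 and Hira on chromosome 11 was used, chosen after the values were seen, since no symbol began with Igl. Its 9 rows, some of which may be other genes, summed to 421, 88.1 and 92.2 FPKM in controls and 101, 59.6 and 108 FPKM in periodontitis. Control 1 was highest, and the other 5 libraries lay within a narrow range, with the groups overlapping. Most of the sum came from a row named LOC100361706 (312 bp), with 326, 75.9 and 76.4 FPKM in controls and 87.1, 45.1 and 75.5 FPKM in periodontitis. No tested row of this interval passed limma's adjusted p of 0.05 (0 of all 13154 tested genes did).

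**Figure D5:**
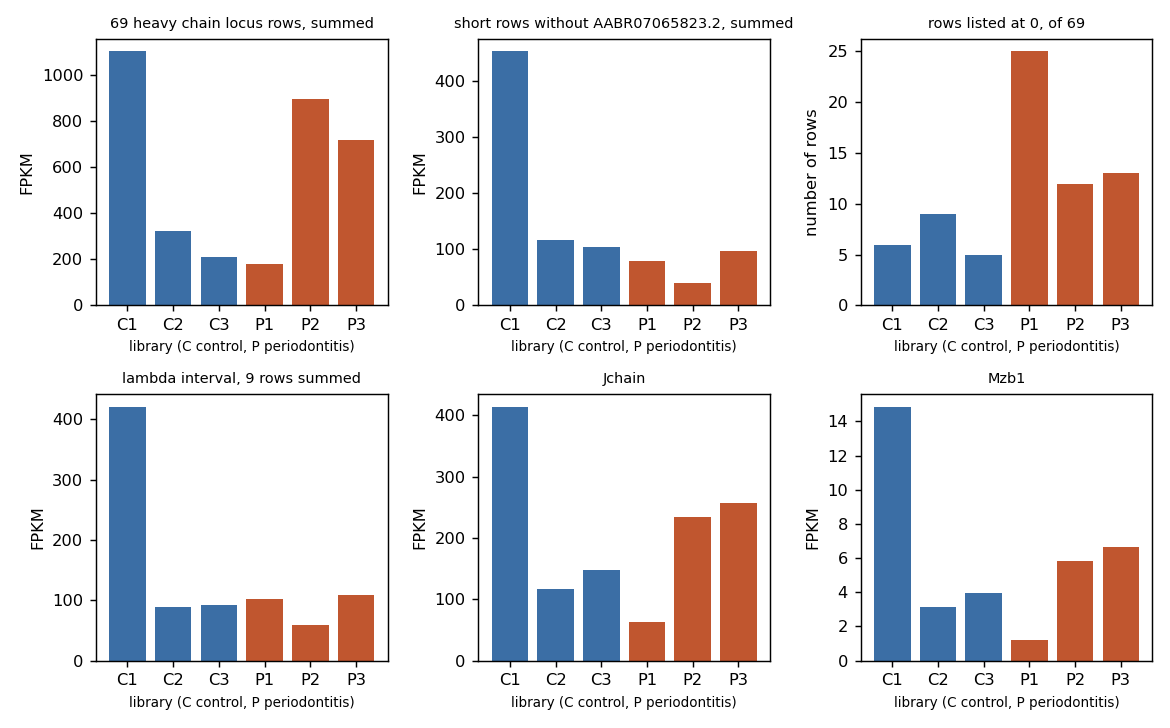
Levels by library (C1 to C3 control, P1 to P3 periodontitis) of the 69 heavy chain locus rows, the short rows without AABR07065823.2, the number of rows at 0, the lambda interval, Jchain and Mzb1, with FPKM or numbers of rows on the vertical axes. Control 1 has the highest FPKM in all 5 panels of levels, and the number of rows at 0 is highest in periodontitis 1 (25).

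Genes outside the locus that mark B cells, plasma cells and antibody transport were tested with limma over all 13154 tested genes. Of the 61 tested genes in 5 lists, 0 passed an adjusted p of 0.05. An unadjusted p under 0.05 was found for 2 of them, both lower, against 1.73% of all tested genes lower and 0.38% higher. A lower mean, here and below on the log2(FPKM + 1) scale, was seen in 48 of the 61 (78.7%), against 57.4% of all tested genes, and their median log2 fold change was -0.24 against -0.03. In each of the 5 lists the summed FPKM was lowest in periodontitis 1. For B cell receptor and surface genes it was 179 FPKM there, against 276 to 460 FPKM in the other libraries. The count of lower means was not repeated without periodontitis 1. Without that library some named genes turned to log2 differences above 0, such as Jchain (0.35), Xbp1 (0.21) and Mzb1 (0.07). Others stayed below 0, such as Cd74 (-0.36), Itgb7 (-0.43) and Ciita (-0.19), and Prdm1 turned lower (-0.28). The count therefore rests in part on periodontitis 1, and how far is not known. All 3 periodontitis libraries lay below all 3 controls in 4 of the 61 genes, against 3.59% of all tested genes, and above them in 0, against 1.97%.

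Among B cell receptor and surface genes, 11 of 15 in the tables were tested, 8 with a lower and 3 with a higher mean (median -0.18). Cd79a, a signalling chain of the B cell receptor, had 5.59, 0.727 and 0.698 FPKM in controls and 0.760, 3.10 and 3.19 FPKM in periodontitis, again high in control 1 and in periodontitis 2 and 3. Its partner Cd79b had 4.32, 0.364 and 0.645 FPKM in controls and 1.199, 2.06 and 2.28 FPKM in periodontitis. Below the filter, the B cell surface gene Ms4a1 reached at most 2.73 FPKM, in control 1. Cd74, which chaperones class II antigen-presenting molecules, had a log2 fold change of -0.67 ± 0.31, the B cell surface gene Cd37 of -0.46 ± 0.31 and the class II regulator Ciita of -0.45 ± 0.28 (SE).

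Among plasma cell genes, 17 of 20 were tested, 14 with a lower and 3 with a higher mean (median -0.24). The 1 gene with an unadjusted p under 0.05 was Itgb7, an integrin chain for homing to mucosa. It had 4.14, 4.61 and 4.27 FPKM in controls and 0.840, 3.30 and 2.65 FPKM in periodontitis (log2 fold change -0.80 ± 0.32, limma adjusted p rounding to 1.0). Its groups did not overlap. Other homing receptors, Cxcr4 and Itga4, had -0.37 ± 0.33 and -0.40 ± 0.36. Xbp1, a driver of the secretory program, had -0.18 ± 0.37. It was highest in periodontitis 3 (330 FPKM), as the gland gene Lipf was, whereas Jchain and Mzb1 were highest in control 1. Which cells the RNA of the listed genes came from was not tested, so their count is not a measure of plasma cells alone. Prdm1, a plasma cell transcription factor also made in epithelium, had 0.08 ± 0.43. Sdc1, a plasma cell surface protein that epithelium also makes, had 0.07 ± 0.33. Tnfrsf17, the receptor BCMA, and the transcription factor Irf4 were below the filter, at 0.497 to 2.35 and 0.888 to 2.93 FPKM in controls and 0.307 to 1.16 and 0.227 to 1.25 FPKM in periodontitis.

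Of genes for B cell transcription and antibody gene rearrangement, 12 of 15 were tested, 8 lower and 4 higher in the mean (median -0.10). Ung, which acts in class switching, had -0.27 ± 0.26, and the transcription factors Ebf1 and Tcf3 had -0.25 ± 0.22 and -0.24 ± 0.23. For antibody transport and Fc receptors all 11 were tested, 10 lower and 1 higher (median -0.30). Pigr had 209, 182 and 289 FPKM in controls and 107, 194 and 421 FPKM in periodontitis (-0.11 ± 0.47). Its highest library, periodontitis 3, was not the highest for Jchain, Mzb1, Igh-6 or Ighg. Fcgrt, the recycling receptor for IgG, had -0.25 ± 0.20, Fcer1a, the binding chain of the IgE receptor, had -0.53 ± 0.37, and Fcer1g, a signalling chain of Fc receptors, had -0.40 ± 0.21, with groups that did not overlap. The B cell factor Pax5 was not analysed here.

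Of signals that attract or sustain B cells, 10 of 13 were tested, 8 lower and 2 higher (median -0.53). Ccl21, a chemokine of lymphatic vessels and lymphoid tissue, had 90.5, 98.4 and 106.9 FPKM in controls and 18.5, 78.6 and 57.9 FPKM in periodontitis, without overlap (-1.14 ± 0.48). Tnfsf13b, the B cell survival factor BAFF, had 2.61, 1.16 and 1.07 FPKM in controls and 0.144, 0.874 and 0.869 FPKM in periodontitis, also without overlap (-0.67 ± 0.32). Tgfb1, a signal for class switching to IgA, had -0.80 ± 0.41. None of these passed, with limma adjusted p-values of 1.0 after rounding. Markers of other cells were read in the same libraries. Of 14 tested genes of neutrophils, mast cells, macrophages, T cells and red cells, 10 had a lower and 4 a higher mean, none of the 15 listed was at 0 in any library, and their sum was 237 to 298 FPKM in controls and 350 to 689 FPKM in periodontitis. Most of this sum in periodontitis came from Hbb and the neutrophil and epithelial genes S100a8 (log2 fold change 0.80) and S100a9 (1.06), which together had 121 to 190 FPKM in controls and 291 to 573 FPKM in periodontitis. The other 12 genes summed to 95.8 to 121 FPKM in controls and 59.9 to 116 FPKM in periodontitis, with overlapping groups. The macrophage gene Tyrobp (-0.37), the mast cell gene Tpsab1 (-0.69) and the muscle genes Acta1 (-1.02) and Myh2 (-1.14) were lower, and the globin gene Hbb (1.38) higher, in all 3 periodontitis libraries than in all 3 controls. Their part in the antibody gene values was not tested.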

How the data were processed

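Per the file headers, the deposited values are FPKM as computed by the authors, 1 value per protein-coding gene and library. Per the submitters' processing notes, FastQC, cutadapt, HISAT2 and StringTie were used, without versions, and the build is named as mm10, although the identifiers are of rat. Read counts, library strandedness and depth are not given, no whole reads could be recovered, and the number of libraries limits the precision. Members were taken by position, and the members and gene lists were chosen with earlier results of these data known. A gene was tested when 3 or more libraries had 1 FPKM or more (13154 genes, with 1251 left out), on log2(FPKM + 1) with limma 3.58.1 in R 4.3.3, with a mean-variance trend, group as the only term, two-sided, and Benjamini-Hochberg adjustment over all tested genes. The code was tested on simulated data. Locus rows are described without a test, by symbol, by the 10 highest means, by groups that do not overlap, and by zeros at all 3 libraries of a group. Other rows named were chosen after their values were seen. Outside the locus, chosen key genes and the 3 smallest p in each list are named, and some results, light chain rows outside the lambda interval among them, are not reported here. Alternatives were a replicate block, other filters, pseudocount and scalings, and each library left out. No 2 libraries held identical values.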

Additional observations from a re-analysis of the deposited data

How the results depend on the processing

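Over all tested genes, 0 were called by limma. The count was 1 with an adjusted p under 0.1, 3 with the replicate number as a block, and 0 to 1 with each library left out (1 without control 1). Replicate numbers were not taken to pair libraries, since the deviations of equal numbers correlated at 0.0902, 0.0346 and 0.461, not all above 0.1. In the 5 antibody-related lists 0 genes were called under every alternative, including the replicate block. The log2 difference of the summed locus rows was 0.21, with a spread of 1.24, and ran from -0.28 to 0.93 with 1 library left out. Without AABR07065823.2, Igh-6 and Ighg together, an alternative added after the data were seen, it was -0.95. Rows with periodontitis below all controls numbered 10, and 10 to 21 with 1 library left out. Over all listed genes these shares were 3.83%, and 6.1% to 15.2%. Rows above numbered 0, and 0 to 6, the 6 without control 1, against 2.03%, and 3.1% to 18.5%, of all listed genes. For 52 named genes there were 520 alternative values. Only those of locus rows were compared with the spread, and 5 moved by more than it, all with a pseudocount of 0.1. Named genes outside the locus were judged only by whether limma called them, which did not change under any alternative. The sign was another in 23 values of 14 genes, Igh-6, Ighg, Jchain and Mzb1 among them, none of them a called difference. Whether locus rows pass a threshold is not read from these fits, since they were chosen on the same values. What depth limits could not be computed without read counts.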
